A study of Mus musculus with 12 samples.

Results

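The transcript levels of J774A.1 macrophages given lipopolysaccharide (LPS) without any other agent were compared with those of mock-treated J774A.1 macrophages, over 11745 of the 11762 genes of the deposited table. A gene entered the comparison when its value was at least 1 in at least 3 of the 12 libraries, which left out 17 genes. J774A.1 is an established macrophage-like tumour line of the BALB/c mouse strain, so each library comes from 1 line with 1 genetic background. The series holds 4 groups of 3 biological replicates each, all of polyadenylated RNA: control cells (described as mock-treated in the design and as untreated in the labels), cells given microparticles (MP), cells given LPS, and cells given both (LPS+MP). The dose and source of LPS, the hours of exposure and the material of the microparticles are not stated in the text used here. All control and LPS cells are free of MP, and the MP and LPS+MP libraries enter below through the shared estimate of the spread and through a repeat of the LPS comparison in cells that all carry MP.

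LPS is the outer-membrane glycolipid of Gram-negative bacteria. It is presented by CD14 to the receptor TLR4 with its partner MD-2 (gene Ly96), and TLR4 then signals along one arm through the adaptors TIRAP and MyD88 to NF-kB and MAP kinases and along another through TRAM (Ticam2) and TRIF (Ticam1) to IRF3 and the type I interferon genes. In macrophages the first arm is known for cytokines and chemokines, the second for a wave of interferon-stimulated genes that runs through the receptor IFNAR and factors of the STAT and IRF families.

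Values were read as CPM, counts of a gene as a share of a common total, although the authors headed them otherwise. In most libraries the low values were not whole multiples of 1 read, so that values far below 1 CPM mean only that a gene was near 0. Changes are differences of group means of log2(CPM + 1), a scale that understates the change of genes near 0 CPM. They are given with their standard error (SE) and a Benjamini-Hochberg adjusted p from limma. A gene was said to rise or fall when its adjusted p was under 0.05 and its change over 2-fold. Group means are given with the SD over the 3 libraries. The read depth of the libraries is unknown. The macrophage markers of the line were present: among the control libraries Csf1r, the receptor for the macrophage growth factor M-CSF, stood at 922, 980.1 and 1108 CPM, the lysosomal protein gene Cd68 at 843, 818 and 934 CPM, the lysozyme gene Lyz2 at 2414, 2244 and 2521 CPM and the myeloid transcription factor gene Spi1 (PU.1) at 269.5, 257 and 275 CPM. Of the markers of natural killer cells, mast cells, epithelial cells and erythroid cells that were looked for, none was among the genes analysed here. Of 10 T cell markers, Cd5 and Lck were, with a sum of 36.01 to 38.6 CPM in control and 33.7 to 46.4 CPM in LPS libraries, and of 8 B cell markers only Blnk, with 77.5 to 79.7 CPM in control and 121 to 157 CPM in LPS libraries. Of 9 neutrophil markers, S100a8 and Camp summed to 1.3 to 2.67 CPM in control and 4.14 to 6.04 CPM in LPS libraries. Of 8 dendritic cell markers, Zbtb46 and Itgax summed to 6.39 to 7.49 CPM in control and 6.75 to 7.58 CPM in LPS libraries. Of 8 fibroblast markers only Pdgfra was analysed, with 1 to 1.64 CPM in control and 7.67 to 10.8 CPM in LPS libraries, and of 7 endothelial markers Pecam1, Cdh5 and Vwf, with a sum of 18.8 to 21.5 CPM in control and 7.96 to 15.6 CPM in LPS libraries. Within that sum Pecam1 was at 0.522 to 0.78 CPM in control and 3.61 to 4.55 CPM in LPS libraries, and Vwf at 16.5 to 18.9 and 2.79 to 8.82 CPM. Their part in the results was not tested. LPS replicate 2 stood apart from the other LPS libraries, with 339 of its genes over 1 log2 unit from their mean. By the same measure within the group, LPS replicate 1 had 29 such genes, LPS replicate 3 had 17 and the control libraries 2 to 8. Without LPS replicate 2, 1004 genes rose and 888 fell, near the 975 and 945 found with it.

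With LPS, 975 genes rose (8.3% of those tested) and 945 fell (8.05%). The numbers were nearly equal but the sizes were not. Of the genes that rose, 155 changed by over 3 log2 units and 19 by over 6, against 31 and 0 of those that fell. Control and LPS libraries did not overlap in 1919 of the 1920 called genes and in 7547 of the 11745 tested. A lack of overlap therefore adds little for a called gene. The genes that rose held 3.83% ± 0.0269 of the CPM in control cells and 15.8% ± 0.737 in LPS cells (mean ± SD, n = 3 each), and the genes that fell 9.07% ± 0.0381 and 3.09% ± 0.114. Those shares describe the genes chosen by the same comparison and are no further evidence of it. The median change over the genes tested was -0.08 and the median SE 0.12, so many small changes also had an adjusted p under 0.05: 3119 genes in the higher and 4178 in the lower direction when no minimum size was set.

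**Figure D1:**
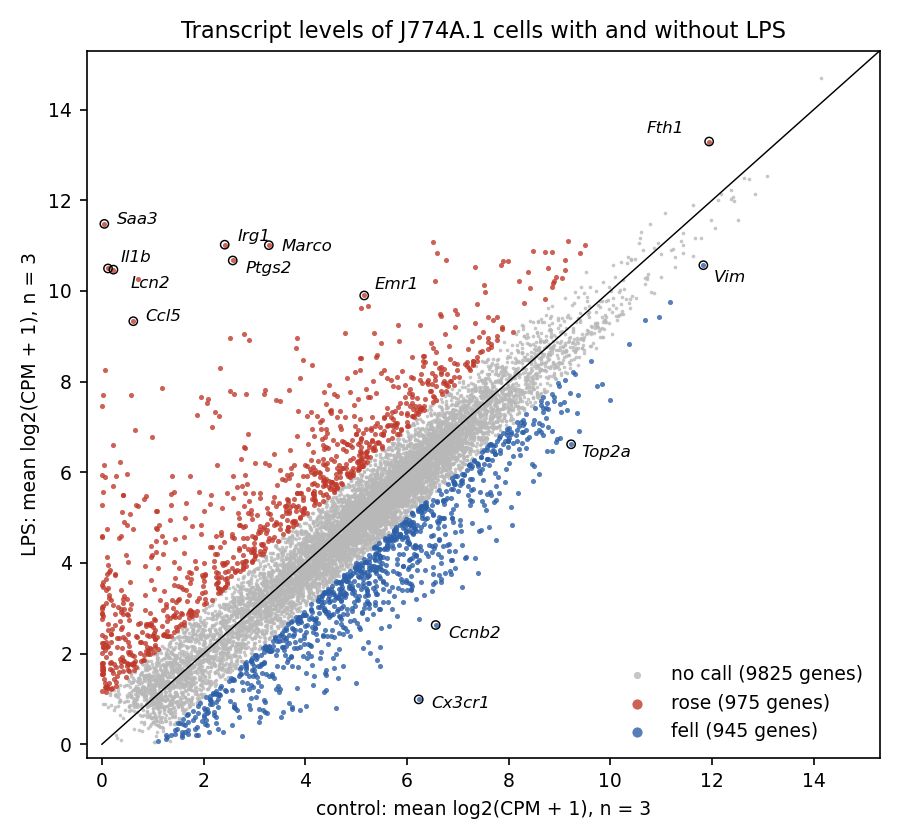
Mean log2(CPM + 1) of each gene tested in the 3 LPS libraries (vertical axis) against the 3 control libraries (horizontal axis), with the 975 genes that rose and the 945 that fell in colour and the line of equal values. The points of genes that rose reach far up the left edge, where control values are near 0, while Cx3cr1 lies farthest below the line of equal values.

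The gene with the largest rise was Saa3, an acute phase protein of the serum amyloid A family (chromosome 7, 46711998 to 46715676 in the coordinates of the deposited table). It was at 0.0186, 0.000421 and 0.0828 CPM in the control libraries and at 3307, 2444 and 2882 CPM in the LPS libraries, a change of 11.43 ± 0.12 (adjusted p = 1.41e-18). The LPS libraries thus hold it among their most abundant transcripts and the control libraries near 0. Il1b, which encodes the pyrogenic cytokine interleukin 1 beta, went from 0.102, 0.00106 and 0.163 CPM to 1566, 1482 and 1297 CPM (10.38 ± 0.10). Lcn2, an iron-siderophore-binding protein that withholds iron from bacteria, went from 0.206, 0.131 and 0.174 CPM to 1489, 1317 and 1454 CPM (10.24 ± 0.11). The same course from near absence to a high level was seen for Il1a (9.55 ± 0.16), Ccl5 (8.72 ± 0.17), the neutrophil growth factor gene Csf3 (8.19 ± 0.11), Il6 (7.68 ± 0.16), and the ferroxidase ceruloplasmin gene Cp (7.14 ± 0.12). Irg1, whose enzyme makes itaconate from aconitate, was measurable beforehand at 4.85, 5.34 and 3.09 CPM and rose 469-fold to 2028, 2169 and 2038 CPM. Ptgs2, the inducible cyclooxygenase, rose 328-fold from 4.29, 5.14 and 5.49 CPM to 1599, 1692 and 1604 CPM. In these genes the control and LPS libraries lay far apart, and the spread among the LPS libraries was small beside that gap. The order of these rises depends on the pseudocount of 1, and with 0.1 the 15 largest rises shared 10 genes with those given here, without Ptgs2, Marco, Cp, Rsad2 and Irf7. The others of the 15 at a pseudocount of 1 were the scavenger receptor gene Marco (7.73 ± 0.11), the antiviral radical-SAM enzyme gene Rsad2 (6.69 ± 0.20), the interferon factor gene Irf7 (6.44 ± 0.12), the netrin family gene Ntng2 (6.38 ± 0.21) and Serpinb2 (plasminogen activator inhibitor 2, 7.47 ± 0.20), which was at effectively 0 CPM in the control libraries.

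**Figure D2:**
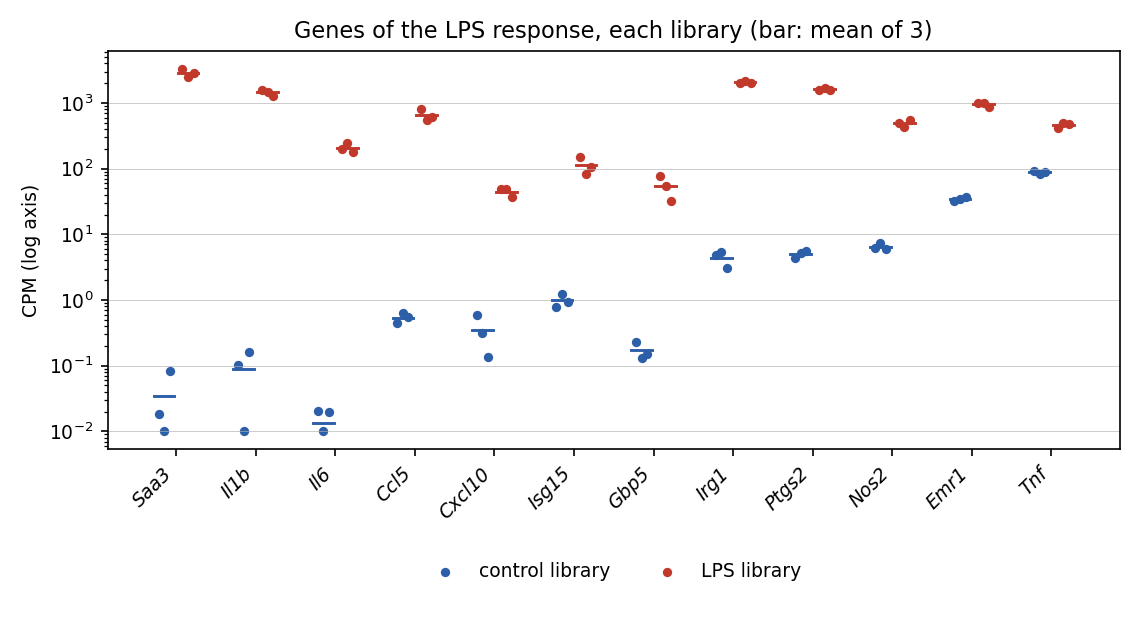
CPM on a log axis (values under 0.01 drawn at 0.01) of 12 genes of the LPS response in each of the 3 control and 3 LPS libraries, 1 point per library. The LPS points lie above the control points in each of these genes, and Tnf, at 82.1 to 90.9 CPM in control cells, has the smallest gap.

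A total of 43 genes were under 1 CPM in each control library and at least 10 CPM in each LPS library, while the reverse held for 1 gene, Cx3cr1. Besides the cytokine genes above, those switched on in this sense included the formyl peptide receptor genes Fpr1 and Fpr2, which sense bacterial peptides, the neutrophil chemokine gene Cxcl3, the growth factor gene Csf2 (GM-CSF), the endothelin gene Edn1 and the hepatocyte growth factor receptor gene Met. By the size of the gain in CPM another set led. Fth1, the heavy chain of the iron store ferritin, gained most, from 3939.9 ± 125 to 10108 ± 1153 CPM (mean ± SD, n = 3 each), a change of 1.35 ± 0.11. It was followed by Saa3, the chemokine gene Ccl3, Irg1, Marco, the complement gene C3, the chemokine gene Ccl9, Ptgs2, the predicted gene Gm26809 and the ubiquitin ligase gene Rnf213. The largest losses of CPM were in Vim (vimentin, 3640.4 ± 46.8 to 1520.0 ± 93.8 CPM), the endocytic receptor gene Lrp1, Ptma, the tubulin genes Tubb5 and Tuba1b, Mki67, Lgals3 (galectin 3), Ptms, Lsp1 and Top2a.

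Genes were next grouped into 48 lists by their roles, and each list is described by its counts and its median change beside the 8.3% rising, 8.05% falling and median of -0.08 over the genes tested. Some genes stand in more than 1 list.

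With LPS 7 rose and 2 fell of 24 genes for Toll-like receptors and their adaptors, with a median change of 0.40. The LPS receptor gene itself, Tlr4, was at 72.3, 73.1 and 75.6 CPM in control and 50.9, 67.9 and 48.7 CPM in LPS libraries (-0.41 ± 0.11, adjusted p = 0.00337), lower in each LPS library but below the size needed for a call. The genes of its partners went the other way, with Ly96 at 0.99 ± 0.14, just short of a call that it gained under both other scalings (1.07 and 1.10), and the co-receptor gene Cd14 rising from 459, 449.6 and 522 CPM to 1476, 869 and 1339 CPM (1.33 ± 0.14). The largest rises of the list were in the negative regulator gene Irak3 (3.06 ± 0.08), in Tlr2 (2.77 ± 0.10) and Tlr1 (2.66 ± 0.10), whose products pair to sense bacterial lipoproteins, and in the adaptor gene Ticam2 of the TRIF arm (1.96 ± 0.10). Genes for 2 receptors fell, Tlr5 for flagellin (-2.83 ± 0.15) and Tlr13 for bacterial ribosomal RNA (-1.18 ± 0.12). The shared adaptor gene Myd88 changed by 0.57 ± 0.10, too little for a call.

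With LPS 14 rose and none fell of 21 genes for NF-kB subunits and their feedback inhibitors (median 1.32). They included the subunit genes Nfkb1 (1.17 ± 0.06), Nfkb2 (1.32 ± 0.09) and Rel (1.39 ± 0.13), but not Rela (-0.44 ± 0.13). Some other genes of the list moved further, and 7 of the 21 had no call. Nfkbia, which encodes the I-kappa-B that holds NF-kB in the cytoplasm, went from 76.5, 80.2 and 86.1 CPM to 369.9, 279 and 388 CPM (2.07 ± 0.10). Tnfaip3, the ubiquitin-editing enzyme A20, changed by 2.95 ± 0.09, and Nfkbiz, a nuclear co-activator of late cytokine genes, by 3.47 ± 0.10. Traf1, a signalling adaptor of TNF receptors, had the largest change of the list (4.18 ± 0.11). With LPS 10 rose and none fell of 26 genes for MAP kinase phosphatases and AP-1 factors, where the immediate early gene Ier3 (2.89 ± 0.11), the phosphatase gene Dusp2 (2.02 ± 0.23) and Junb (1.61 ± 0.16) led, with Fosl1, Fos, Egr1, Atf3 and Maff also rising. Fosl2 rose by 1.04 ± 0.11, and lost the call without LPS replicate 1 (0.97) or 3 (0.95). Jun (-0.83 ± 0.16, called at -1.02 without LPS replicate 3) and Myc (-0.58 ± 0.16) had lower means in LPS cells without a call. Of 12 regulators of messenger decay 4 rose, 1 fell and 7 had no call (median 0.16). Those that rose included Zfp36 (tristetraprolin, 1.97 ± 0.10), Zc3h12a (regnase 1, 2.53 ± 0.14) and Zc3h12c (2.84 ± 0.12). Zfp36l2, a relative of Zfp36, fell (-1.68 ± 0.07).

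With LPS 10 rose and none fell of 16 genes of the interleukin 1 family and the inflammasome. Beside Il1a and Il1b rose the receptor antagonist gene Il1rn (14.5 ± 0.839 to 358 ± 27.4 CPM, 4.53 ± 0.09), Il1f9 (3.16 ± 0.14), the inflammatory caspase genes Casp4 (2.38 ± 0.10) and Casp1 (1.28 ± 0.12) and the sensor gene Nlrp3 (1.17 ± 0.06), while the pore-forming effector gene Gsdmd changed by 0.37 ± 0.08 and the adaptor gene Pycard by -0.66 ± 0.13, neither with a call. In the group of interleukins 6, 10, 12 and 27 with their signalling parts 12 of 19 rose and 1 fell (median 2.01). Il6 was at 0.0205, 0.000171 and 0.0194 CPM in control and 198, 248 and 180.3 CPM in LPS libraries. Il10, the anti-inflammatory member, rose from 1.4, 0.839 and 1.08 CPM to 33.8, 38.7 and 31.5 CPM (4.09 ± 0.17), and Il12b, the subunit shared by interleukins 12 and 23, from effectively 0 CPM in each control library to 8.24, 6.41 and 6.31 CPM (2.99 ± 0.14, or 6.14 with a pseudocount of 0.1). Each of these ended far below Il1b in reads, and control and LPS libraries did not overlap, as in nearly all called genes. The feedback inhibitor gene Socs3 rose by 6.27 ± 0.12 and Socs1 by 3.72 ± 0.26, whereas the interleukin 6 receptor gene Il6ra fell (-1.24 ± 0.11). Tnf was present in control cells at 90.9, 82.1 and 89.4 CPM and reached 416, 503 and 472 CPM, a 5.3-fold rise (2.39 ± 0.09). Of its family, the receptor genes Fas (3.14 ± 0.14), Tnfrsf1b (2.71 ± 0.09) and Cd40 (2.60 ± 0.09) rose, and the ligand gene Tnfsf14 (LIGHT) fell (-1.33 ± 0.28, -2.43 with a pseudocount of 0.1, or -0.89 without LPS replicate 2, short of the call), with 18 members tested, 7 rising and 1 falling.

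Chemokine genes of the CC class mostly rose: of 10 tested, 9 rose and 1 fell (median 2.90). Ccl5, which attracts T cells and monocytes, stood at 0.441, 0.624 and 0.542 CPM in control and 807, 543 and 609.6 CPM in LPS libraries. Ccl3 was at 90.6, 86.5 and 92.2 CPM and rose to 2536, 1758 and 2260.1 CPM (4.57 ± 0.12), and its neighbour Ccl4 from 75.3 ± 6.52 to 613 ± 54.00 CPM (3.01 ± 0.08). Ccl9, at 577 ± 46.9 CPM in control cells and thus abundant beforehand, rose to 2227 ± 319.7 CPM. The monocyte attractants Ccl2 (2.79 ± 0.14) and Ccl7 (4.29 ± 0.12) rose too, and Ccl24, an eosinophil attractant linked to alternative activation, was the 1 that fell (-1.30 ± 0.21, or -3.08 with a pseudocount of 0.1). Of 7 CXC genes 5 rose and 1 fell. Cxcl2, a neutrophil attractant, rose from 33.7, 37.01 and 38.7 CPM to 794, 868 and 782 CPM (4.44 ± 0.11), Cxcl10, which interferon induces, from 0.59, 0.314 and 0.137 CPM to 48.7, 48.7 and 37.3 CPM (5.09 ± 0.15), and Cxcl14 fell (-1.07 ± 0.22, or -0.89 without LPS replicate 2, short of the call). For these chemokine genes the control and LPS libraries did not overlap, as in nearly all called genes.

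The receptors that steer the cell split. Of 12 genes for chemokine and chemoattractant receptors 4 rose and 3 fell. Fpr2 (6.10 ± 0.14), Fpr1 (5.84 ± 0.16), the chemerin receptor relative Ccrl2 (4.08 ± 0.12) and Ccr1 (1.31 ± 0.17) rose. Cx3cr1, the receptor for fractalkine that marks patrolling monocytes and tissue macrophages, fell from 71.03, 74.9 and 76.6 CPM to 0.995, 0.996 and 0.965 CPM (-5.24 ± 0.11, adjusted p = 5.46e-15), the largest fall of the comparison. Cxcr4 (-2.50 ± 0.10) and Cxcr3 (-2.33 ± 0.24) fell with it. Of 8 colony stimulating factor and receptor genes 6 rose, among them Csf1 (2.88 ± 0.11), Csf2 (4.58 ± 0.19) and the shared receptor subunit gene Csf2rb (2.25 ± 0.08), while Csf1r changed by 0.13 ± 0.08 without a call.

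Interferon-stimulated genes rose in nearly every case. No type I interferon gene was among the genes tested, and the level of Ifnb1 was not analysed here. Among 20 receptor, STAT and IRF genes 6 rose, with Irf7 (4.82, 4.51 and 4.84 CPM in control and 588, 409 and 508 CPM in LPS libraries, 106-fold), Jak2 (3.44 ± 0.08), Stat2 (2.39 ± 0.10) and Irf9 (1.44 ± 0.09) among them. Irf3, which acts through phosphorylation, changed by -0.17 ± 0.14, and Irf1 by 0.93 ± 0.16, just short of the size for a call, which it reached without LPS replicate 2 (1.01). Of 36 interferon-stimulated effector genes 35 rose, with a median change of 3.20. Isg15, a ubiquitin-like modifier, went from 0.781, 1.22 and 0.945 CPM to 151, 81.99 and 105 CPM (5.80 ± 0.20), Oasl1 from 4.21, 3.47 and 4.42 CPM to 344, 273 and 337 CPM (5.98 ± 0.10), and Ifit1, which binds foreign RNA caps, from 0.114, 0.362 and 0.17 CPM to 75.03, 65.00 and 42.7 CPM (5.64 ± 0.20). In all 3 genes the control libraries lay below the LPS libraries by a wide gap. The 1 effector gene without a call was Ifitm3 (0.63 ± 0.11).

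Of 18 nucleic acid sensor genes 13 rose (median 1.93): the RNA helicase genes Ddx58 (RIG-I, 3.22 ± 0.09), Ifih1 (MDA5, 2.82 ± 0.09) and Dhx58 (2.83 ± 0.10), the Z-form nucleic acid sensor gene Zbp1 (4.59 ± 0.17) and several PYHIN genes such as Ifi204 (4.54 ± 0.13). The adaptor and cyclic GMP-AMP genes of the same pathways did not: Mavs changed by 0.19 ± 0.08, Tmem173 (STING) by 0.34 ± 0.10 and Mb21d1 (cGAS) by -0.57 ± 0.07. All 14 tested genes for guanylate-binding proteins and immunity-related GTPases, which attack the vacuoles of intracellular microbes, rose, with a median of 3.91. Gbp5 went from 0.228, 0.131 and 0.152 CPM to 76.6, 53.7 and 32.7 CPM, Gbp7 from 3.18 ± 0.481 to 184 ± 28.5 CPM and Irgm1 from 20.3 ± 2.61 to 94.8 ± 16.5 CPM. The Gbp genes sit in clusters on chromosomes 3 and 5, and since these and the Oas, Ifi20 and Bcl2a1 genes have near-identical copies whose reads the counting could split, the value of any single copy is uncertain.

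**Figure D3:**
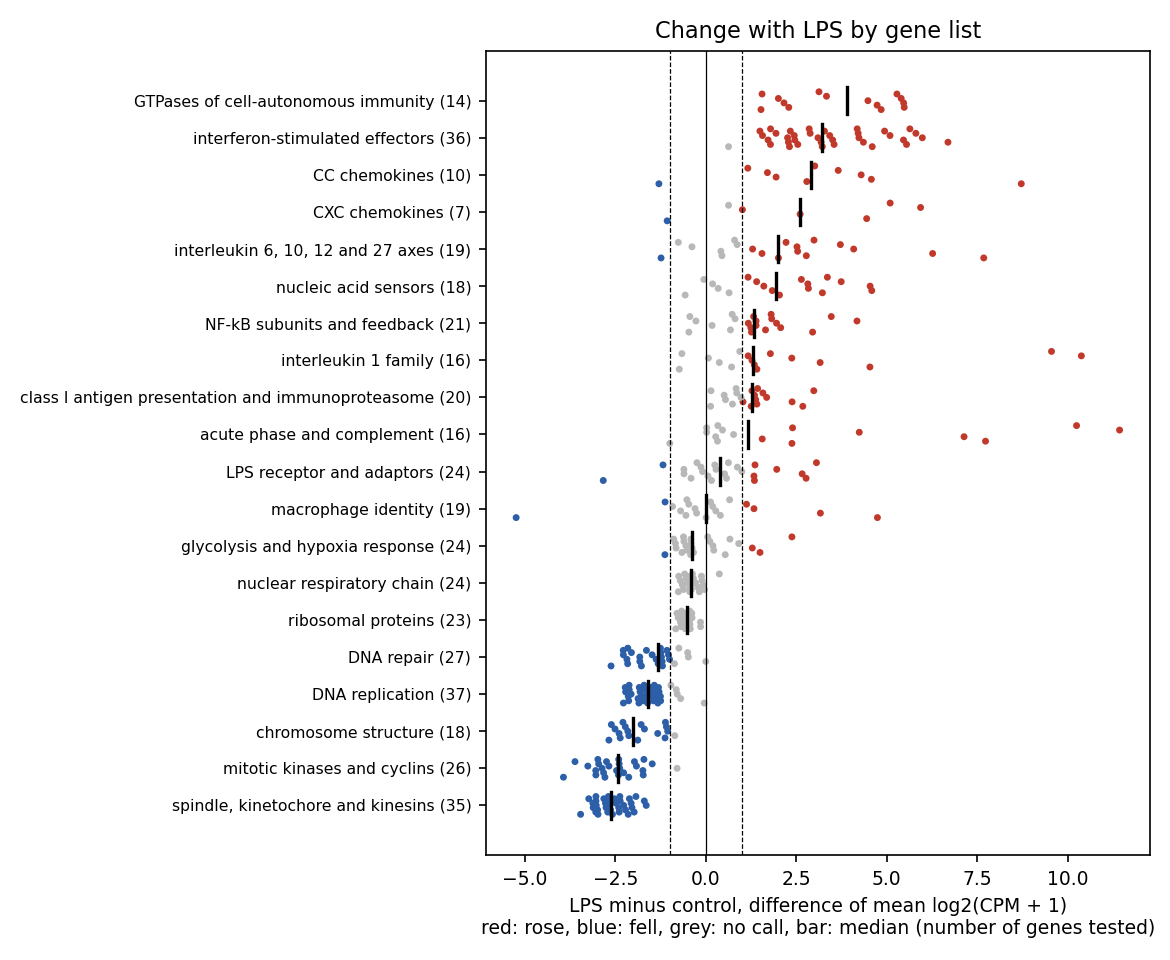
Change with LPS (difference of group means of log2(CPM + 1), LPS minus control) of each tested member of 20 lists, 1 point per gene, with the list median as a bar and the limits of 1 log2 unit as dashed lines. Nearly all interferon effectors, GTPases and chemokines lie to the right of 0 and the cell division lists to the left, while the ribosomal and respiratory chain lists lie between the dashed lines.

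Antigen presentation moved unevenly. Of 20 class I genes 12 rose and none fell (median 1.26): the non-classical H2-T23 by 2.98 ± 0.13, the peptide transporter gene Tap1 by 2.68 ± 0.11, the class I trans-activator gene Nlrc5 by 2.38 ± 0.10 and B2m from 554 ± 18.3 to 1411 ± 122 CPM. The immunoproteasome subunit genes Psmb8 (0.85 ± 0.09), Psmb9 (0.74 ± 0.11) and Psmb10 (0.14 ± 0.16) did not reach a call. Of 7 class II genes tested, Cd74, the invariant chain, rose from 461, 442 and 479 CPM to 2112, 1545 and 1926 CPM (2.00 ± 0.10) and H2-Ob rose too, while H2-Ab1 was low in both groups, at 0.57, 0.471 and 0.624 CPM and 1.27, 0.626 and 1.06 CPM. Ligands for T cells rose with 10 of 18 genes called: Cd274, which encodes the inhibitory ligand PD-L1, from 13.5, 12.8 and 13.2 CPM to 422, 464 and 399 CPM (4.92 ± 0.11), Cd80 by 3.35 ± 0.16, Cd86 by 3.15 ± 0.09 and the adhesion ligand gene Icam1 by 1.66 ± 0.13.

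Genes of antimicrobial metabolism changed at a few steps each. Nos2, the inducible nitric oxide synthase, rose from 6.15, 7.27 and 6.02 CPM to 498, 424 and 544 CPM (6.03 ± 0.23), and with it the arginine importer gene Slc7a2 (5.13 ± 0.11) and Ass1, which rebuilds arginine from citrulline (2.25 ± 0.09). Arg1, which competes for arginine, was low throughout, at 2.32, 2.14 and 2.18 CPM and 1.05, 1.36 and 1.66 CPM (-0.46 ± 0.26, adjusted p = 0.137). Of 23 genes of itaconate synthesis and the citric acid cycle, Irg1 alone rose and Idh2 alone fell (-1.26 ± 0.06). The remaining genes of that cycle shifted little. When size was ignored, 14 of the list were lower with an adjusted p under 0.05, beside 4178 of the 11745 genes tested. In prostaglandin and leukotriene synthesis, Ptgs2 rose together with Ptges, the prostaglandin E synthase (2.23 ± 0.14), and the receptor genes Ptger2 (3.08 ± 0.11) and Ptger4 (1.21 ± 0.11), whereas Alox5, the first enzyme of leukotriene synthesis (-2.50 ± 0.17), and the thromboxane synthase gene Tbxas1 (-1.20 ± 0.16) fell.

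Of 16 acute phase and complement genes 8 rose. C3, the central complement protein, went from 87.6, 94.8 and 105 CPM to 1929, 1796 and 1746 CPM (4.24 ± 0.09), haptoglobin (Hp) changed by 2.40 ± 0.40 and factor B (Cfb) by 1.56 ± 0.18 (4.83 and 4.34 with a pseudocount of 0.1), whereas the C1q chain genes C1qa (0.46 ± 0.15), C1qb (0.27 ± 0.13) and C1qc (0.02 ± 0.12) had no call. Marco, a scavenger receptor for bacteria, went from 9.55, 7.57 and 9.21 CPM to 2054, 2149.8 and 1988 CPM, a 235-fold rise. In oxidant production and defence 5 of 23 genes rose: the NADPH oxidase gene Cybb (2.03 ± 0.08), the mitochondrial superoxide dismutase gene Sod2 (93.3 ± 1.2 to 1200.3 ± 51.2 CPM, 3.67 ± 0.07), Prdx5 (2.09 ± 0.10), the heme oxygenase gene Hmox1 (1.13 ± 0.09) and the cystine importer gene Slc7a11 (4.63 ± 0.09). The oxidase subunit genes Cyba (0.15 ± 0.13), Ncf1 (0.55 ± 0.07) and Ncf4 (0.57 ± 0.06) had no call. Iron genes went in both directions, with the ferritin gene Fth1 and the importer genes Slc11a1 (1.31 ± 0.09) and Slc11a2 (1.68 ± 0.07) rising and the iron exporter gene Slc40a1 (ferroportin) falling from 142, 126 and 124 CPM to 26.1, 38.04 and 26.6 CPM (-2.10 ± 0.11). Ferritin light chain (Ftl1) changed by -0.70 ± 0.14, against the direction of the heavy chain but without a call.

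Genes of sugar and lipid metabolism moved in both directions. Of 24 glycolysis and hypoxia genes 3 rose, Pfkfb3 (2.38 ± 0.11), which makes the activator of phosphofructokinase, Hif1a (1.5 ± 0.11) and Hk2 (1.28 ± 0.07), and Pdk1 fell (-1.13 ± 0.11). The enzymes in between had lower means, such as Tpi1 (-0.82 ± 0.07) and Gapdh (-0.34 ± 0.11), none with a call. Of 20 cholesterol synthesis genes none rose, 2 fell (Insig1 and Acat2), and the median was -0.76. At any size 14 were lower with an adjusted p under 0.05, beside 4178 of the 11745 genes tested. Without LPS replicate 2 or without LPS replicate 3 the number that fell was 4. Apoe, a carrier of exported cholesterol, fell from 27.6, 29.9 and 33.1 CPM to 8.31, 3.64 and 5.89 CPM (-2.22 ± 0.33) and the lipoprotein lipase gene Lpl by -2.07 ± 0.11, while the cholesterol exporter gene Abca1 rose (1.43 ± 0.09) and Abcg1 did not change by a callable size (-0.12 ± 0.07).

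Genes that define macrophages did not move together. Spi1 changed by 0.01 ± 0.10 and Csf1r by 0.13 ± 0.08, and the median over 19 identity genes was 0.01. Emr1, which encodes the surface marker F4/80, rose from 32.2, 35.00 and 37.2 CPM to 1012, 985 and 874 CPM (4.74 ± 0.07), a 27.5-fold rise. The high-affinity IgG receptor gene Fcgr1 rose (3.17 ± 0.09) and so did the factor gene Cebpb (1.12 ± 0.18, or 0.90 without LPS replicate 3, short of the call). Of 17 genes for scavenger and uptake receptors 5 rose, Marco and Fcgr1 among them, and 3 fell (median 0.21). Those that fell were the mannose receptor gene Mrc1 (-2.12 ± 0.20), Trem2 (-1.95 ± 0.12) and Lrp1 (2312 ± 271 to 874 ± 193 CPM). Of the genes linked to alternative activation, Il4ra (2.58 ± 0.08), Tgm2 (2.14 ± 0.14) and Ccl22 (3.66 ± 0.22) rose, and Mrc1, Ccl24 and Klf4 (-1.26 ± 0.18, or -0.96 without LPS replicate 2, short of the call) fell, so that list had 3 members in each direction of 12. P2ry12, a nucleotide receptor of microglia, fell (-1.71 ± 0.16), and the adenosine receptor gene Adora2b rose (4.18 ± 0.15).

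Matrix and survival genes rose in part. Of 18 matrix protease and inhibitor genes 7 rose, with Serpinb2, the matrix glycoprotein gene Thbs1 (6.28 ± 0.20), Mmp8 (4.16 ± 0.19) and Mmp13 (3.05 ± 0.15) among them, and the urokinase gene Plau (-2.62 ± 0.09) and Timp2 (-1.61 ± 0.09) fell. Of 24 cell death regulators 6 rose and none fell. Those that rose comprise the anti-apoptotic genes Bcl2a1a (5.09 ± 0.12), Bcl2a1d (3.67 ± 0.16), Bcl2a1b (1.12 ± 0.24, or 0.87 without LPS replicate 1, short of the call), Birc3 (1.82 ± 0.07) and Cflar (1.85 ± 0.11), and the necroptosis executor gene Mlkl (1.37 ± 0.08). The pro-apoptotic genes Bax (-0.07 ± 0.13) and Bbc3 (-0.47 ± 0.10) had no call.

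The lists with the most members falling were those of cell division. Of 35 tested genes for spindle, kinetochore and kinesin proteins all fell, with a median of -2.63 and a range of -3.46 to -1.65. Of 26 mitotic kinases, cyclins and their regulators 25 fell (median -2.44), the exception being Fzr1 (-0.80 ± 0.13), an activator of the anaphase-promoting complex. Ccnb2, a B-type mitotic cyclin (chromosome 9, 70407689 to 70421554), was at 96.3, 94.8 and 90.04 CPM in control and 4.26, 5.55 and 5.89 CPM in LPS libraries, a 17.9-fold loss (-3.94 ± 0.12, adjusted p = 2.92e-13). Ube2c, the ubiquitin-conjugating enzyme that works with the anaphase-promoting complex, went from 174, 171 and 155 CPM to 12.2, 10.7 and 15.4 CPM (-3.62 ± 0.13). Control libraries of these genes lay within a narrow band and each LPS library lay far below it. Ccna2 (-3.26 ± 0.10), Ccnb1 (-3.04 ± 0.10), the polo-like kinase gene Plk1 (-3.04 ± 0.13), Aurkb (-2.79 ± 0.11), Nusap1 (-3.46 ± 0.13), the midzone protein gene Prc1 (-3.23 ± 0.12) and the factor gene Foxm1, which drives genes of the G2 phase and mitosis (-2.75 ± 0.12), fell likewise. Other genes among the 15 largest falls belong to the same processes, such as Sapcd2 (-3.79 ± 0.25), the helicase gene Pif1 (-3.74 ± 0.14), Stmn1 (-3.23 ± 0.11), a regulator of microtubules, and Fam83d (-3.21 ± 0.15). Besides Cx3cr1, 4 of the 15 largest falls were in genes not known chiefly for cell division: the kinase gene Dmpk (-3.64 ± 0.20), the G-protein regulator gene Rgs2 (-3.60 ± 0.10), the surface receptor gene Cd300lg (-3.56 ± 0.20) and Zfp395 (-3.24 ± 0.23).

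**Figure D4:**
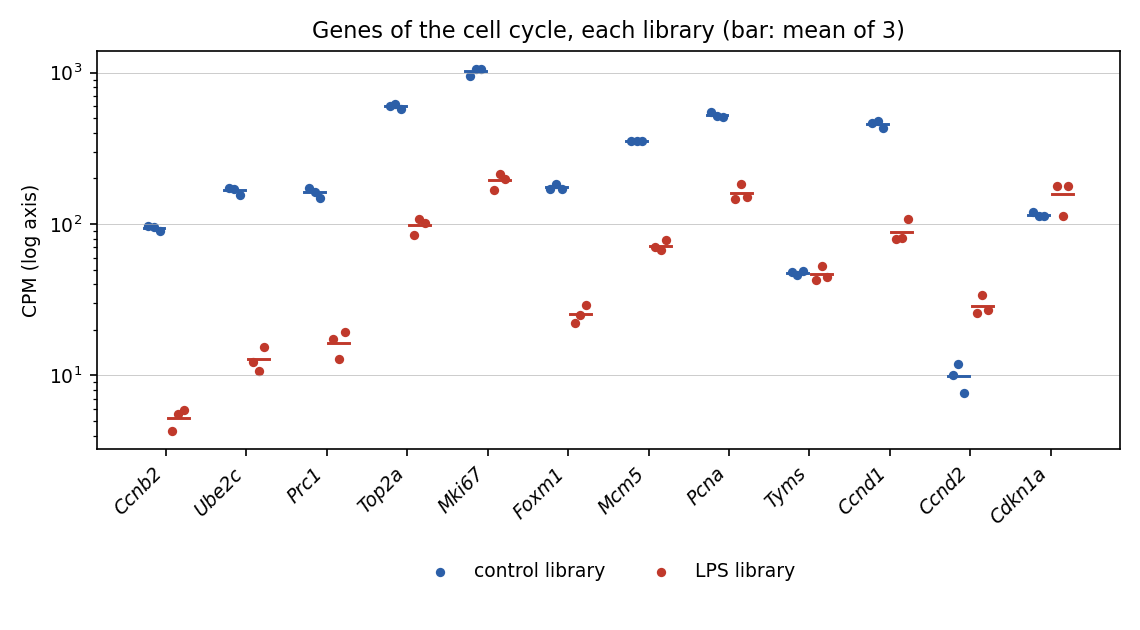
CPM on a log axis of 12 genes of the cell cycle in each of the 3 control and 3 LPS libraries, 1 point per library. Mitotic and replication genes have their LPS points below the control points, Ccnd2 has them above, and Cdkn1a and Tyms differ by less than 2-fold.

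The lists of DNA replication, chromosome structure, DNA repair, the G1 phase and p53 targets had smaller median changes than the mitotic lists. Of 37 DNA replication genes 32 fell (median -1.61). Mcm5, a subunit of the replicative helicase, went from 351, 352 and 354 CPM to 70.9, 67.1 and 78.05 CPM (-2.28 ± 0.09), Pcna, the sliding clamp, from 524 ± 21.4 to 161 ± 20.8 CPM (-1.71 ± 0.10) and Rrm2, a subunit of ribonucleotide reductase, by -2.13 ± 0.11. Tyms, thymidylate synthase, was an exception with 48.4, 46.03 and 48.6 CPM and 42.3, 52.4 and 44.4 CPM (-0.05 ± 0.09). Of 18 genes of chromosome structure 17 fell, with Top2a going from 599.5 ± 25.7 to 97.7 ± 11.9 CPM, the proliferation marker Mki67 from 953, 1059 and 1053 CPM to 167, 215 and 199.7 CPM (-2.40 ± 0.11) and Smc3 missing the size for a call (-0.86 ± 0.16) but reaching it without LPS replicate 2 (-1.11). Of 27 DNA repair genes 22 fell, led by Fancd2 (-2.62 ± 0.11), while the kinase gene Atm was at -0.00044 ± 0.12. Of 24 genes of the G1 phase 10 fell and 1 rose. Ccnd1 fell from 467, 476 and 433 CPM to 79.9, 80.3 and 107 CPM (-2.36 ± 0.10), whereas Ccnd2, another D-type cyclin, rose (1.47 ± 0.14) and Ccnd3 was at 0.15 ± 0.12. E2f8 (-2.91 ± 0.12) and E2f7 (-2.20 ± 0.19), repressive members of the E2F family, fell, and E2f1 was at -0.86 ± 0.10 without a call. The CDK inhibitor gene Cdkn1a (p21), a p53 target that arrests the cycle, changed by 0.41 ± 0.13 without a call, and Cdkn2c (p18) fell (-2.91 ± 0.17). Among 19 p53 targets 5 rose, Gadd45b (2.33 ± 0.11) and Btg1 (1.61 ± 0.07) foremost, and Sesn1 fell by a size at the limit (-1.02 ± 0.13), with the call lost without control replicate 1 (-0.97), LPS replicate 1 (-0.99) or LPS replicate 2 (-0.91) and under both other scalings (-0.95 and -0.95). In bulk RNA, fewer dividing cells and less of each transcript per cell cannot be told apart.

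The stretches of DNA before these genes were examined for short motifs. Promoters from RefSeq (build GRCm38.p6), 300 bases long from 250 before the start of transcription to 50 after its first base on the gene's strand, were found for 8679 of the 11745 genes tested (73.9%). The motifs searched, on both strands, were TTTGAA or TTCGAA (the cell cycle homology region bound by the DREAM and MuvB complexes), CCAAT (bound by NF-Y), GAAANNGAA (an interferon response core), the kappa B site and the E2F site TTTCGCGC or TTTGGCGC, each counted whether or not it overlapped another. Shares are given for the lists with at least 8 promoters that covered at least 80% of their members that rose or fell. Of the 30 spindle genes with a promoter, all of which fell, 80% held TTTGAA or TTCGAA and 70% CCAAT, against 13.6% and 39.4% of all promoters. Of 26 replication genes that fell, 26.9% held the E2F site and 61.5% CCAAT, against 1.69% and 39.4%. On the rising side the kappa B site was in 58.3% of 12 NF-kB feedback genes and in 60% of 10 class I genes, against 5.02% of all promoters. Of 18 DNA repair genes that fell, 66.7% held CCAAT, 11.1% TTTGAA or TTCGAA and 5.56% the E2F site. The kappa B site was in 22.2% of 9 interleukin 1 family genes and 37.5% of 8 genes for MAP kinase phosphatases and AP-1 factors that rose. CCAAT was not confined to lists that fell: it was in 90% of the 10 class I genes that rose. Its share was 50% in the list of MAP kinase phosphatases and AP-1 factors, 33.3% in the interleukin 1 family and 16.7% in the NF-kB feedback genes. These shares describe letters in a window and no binding was measured.

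The promoters of 3 of the genes with the largest mitotic falls, shown for their motif matches (in capitals), were as follows, each written 5′ to 3′ on the gene's strand. Positions given after them count from the first transcribed base as 1, with -1 the base before it.
Ccnb2: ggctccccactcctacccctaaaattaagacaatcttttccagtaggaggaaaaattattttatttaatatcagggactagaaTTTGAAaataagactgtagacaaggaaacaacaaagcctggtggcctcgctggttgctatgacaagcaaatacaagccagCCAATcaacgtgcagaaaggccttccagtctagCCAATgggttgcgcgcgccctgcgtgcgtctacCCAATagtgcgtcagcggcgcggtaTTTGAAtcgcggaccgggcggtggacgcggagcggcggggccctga
Ube2c: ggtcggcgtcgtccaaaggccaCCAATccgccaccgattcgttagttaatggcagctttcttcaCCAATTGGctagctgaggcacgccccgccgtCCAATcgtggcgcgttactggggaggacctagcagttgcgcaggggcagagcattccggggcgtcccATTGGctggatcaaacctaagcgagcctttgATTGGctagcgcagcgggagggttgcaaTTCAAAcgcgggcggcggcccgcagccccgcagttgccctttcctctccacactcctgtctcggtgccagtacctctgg
Prc1: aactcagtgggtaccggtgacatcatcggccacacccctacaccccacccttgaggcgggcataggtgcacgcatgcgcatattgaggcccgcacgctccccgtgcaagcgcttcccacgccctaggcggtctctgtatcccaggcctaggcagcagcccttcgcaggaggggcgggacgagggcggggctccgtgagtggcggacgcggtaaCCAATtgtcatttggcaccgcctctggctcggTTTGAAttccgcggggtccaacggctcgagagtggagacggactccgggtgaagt
In Ccnb2 (chr9:70421505-70421804, minus strand) CCAAT began at -87, -54 and -21 and TTTGAA or TTCGAA began at -167 and 5. In Ube2c (chr2:164769679-164769978, plus strand) CCAAT began at -228, -186, -183, -155, -88 and -57 and TTTGAA or TTCGAA began at -29. In Prc1 (chr7:80294201-80294500, plus strand) CCAAT began at -37 and TTTGAA or TTCGAA began at -5. Nusap1, also among the largest falls, held none of the searched motifs in this window.

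For comparison, the promoters of 3 of the most abundant acute phase and chemokine genes of LPS cells were these, with matches in capitals.
Saa3: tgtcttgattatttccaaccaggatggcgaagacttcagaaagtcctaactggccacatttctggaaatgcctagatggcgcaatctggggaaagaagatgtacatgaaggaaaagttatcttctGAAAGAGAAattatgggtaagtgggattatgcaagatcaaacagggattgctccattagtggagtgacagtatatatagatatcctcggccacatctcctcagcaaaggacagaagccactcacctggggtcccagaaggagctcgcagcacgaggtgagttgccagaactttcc
Ccl9: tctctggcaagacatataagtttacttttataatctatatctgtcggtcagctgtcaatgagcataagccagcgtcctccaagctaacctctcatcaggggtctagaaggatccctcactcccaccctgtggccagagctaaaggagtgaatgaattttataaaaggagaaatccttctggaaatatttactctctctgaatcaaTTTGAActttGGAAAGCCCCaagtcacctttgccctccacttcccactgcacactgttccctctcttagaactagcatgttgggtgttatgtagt
Ccl3: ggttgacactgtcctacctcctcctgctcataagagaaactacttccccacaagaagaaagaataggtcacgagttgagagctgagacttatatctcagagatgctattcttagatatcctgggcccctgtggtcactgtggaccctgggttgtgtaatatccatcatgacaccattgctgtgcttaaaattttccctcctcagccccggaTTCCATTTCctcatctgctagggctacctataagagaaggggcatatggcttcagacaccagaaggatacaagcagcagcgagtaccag
In Saa3 (chr7:46715627-46715926, minus strand) GAAANNGAA began at -125. In Ccl9 (chr11:83578587-83578886, minus strand) the kappa B site began at -35 and TTTGAA or TTCGAA began at -45. In Ccl3 (chr11:83649329-83649628, minus strand) GAAANNGAA began at -39. Marco held none of the motifs in this window.

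Housekeeping lists shifted by small amounts. None of 23 ribosomal protein genes had a call (median -0.51). At any size 21 were lower with an adjusted p under 0.05, beside 4178 of the 11745 genes tested. Ribosomal protein transcripts held 4.01% ± 0.2 of the CPM in control and 2.82% ± 0.269 in LPS cells. The 24 nuclear genes of the respiratory chain had no call either (median -0.40). CPM is a share of a fixed total, so that gains of some genes lower the values of all others, and the part of this in the small shifts was not tested. Of 21 stress response genes 3 rose (Cth, Ppp1r15a and Atf3) while the chaperone gene Hspa5 changed by 0.42 ± 0.11. Of 26 lysosomal genes the protease gene Ctsl rose (1.44 ± 0.08) and the regulator gene Tfeb fell (-1.42 ± 0.16).

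The LPS comparison could be repeated in other libraries. In cells that all carried MP, LPS+MP against MP, which shares no library with the comparison above, 671 genes rose (5.71% of those tested) and 926 fell (7.88%). Of the genes that rose with LPS alone, 576 also rose there (59.1% of the first list and 85.8% of the second), and of those that fell 654 also fell (69.2% and 70.6%). 2 genes passed in opposite directions. Il1b changed by 9.76 ± 0.10 in those cells, Saa3 by 10.47 ± 0.12, Irg1 by 7.76 ± 0.12, Nos2 by 6.13 ± 0.23 and Emr1 by 3.41 ± 0.07. On the falling side Ccnb2 changed by -4.61 ± 0.12, Ube2c by -4.51 ± 0.13, Cx3cr1 by -3.03 ± 0.11 and Ccnd1 by -2.75 ± 0.10. The interferon effectors had a median of 2.78 there with 35 rising, and the spindle genes one of -3.78 with 35 falling.

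**Figure D5:**
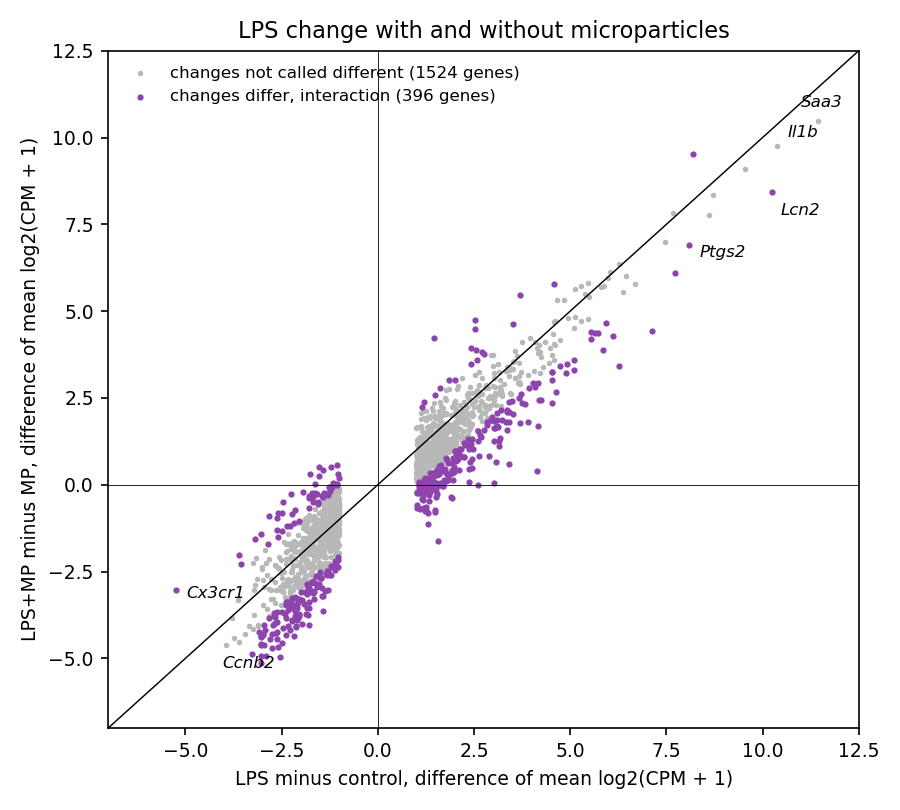
Change with LPS in cells carrying MP (LPS+MP minus MP, vertical axis) against the change with LPS alone (LPS minus control, horizontal axis), both as differences of mean log2(CPM + 1), for the 1920 genes that rose or fell with LPS alone. Most points lie in the upper right and lower left quadrants, and the 396 coloured points are genes whose changes differed by the interaction test.

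The LPS change differed by the presence of MP in 552 genes, 4.7% of those tested. Their interaction term had an adjusted p under 0.05 and a difference of over 2-fold. Taken with its sign, the LPS change was lower with MP in 432 of them and higher in 120. For a gene that rose, lower means a smaller rise or a fall, and for a gene that fell it means a further fall. Among the 975 genes that rose with LPS alone the numbers were 199 and 19, and among the 945 that fell 123 and 55. LPS minus control enters both the choice of those genes and the interaction, so their numbers are a description only. For Ptgs2 the change was 8.10 ± 0.12 without and 6.91 ± 0.12 with MP, for Lcn2 10.24 ± 0.11 and 8.42 ± 0.11, and for Cxcl10 5.09 ± 0.15 and 3.60 ± 0.15. The starting level differed too: Ptgs2 was at 4.29, 5.14 and 5.49 CPM in control and 30.6, 24.3 and 20.01 CPM in MP libraries, and at 3434, 2893 and 2925 CPM in LPS+MP libraries. Lcn2 was at 0.170 ± 0.0374 CPM in control and 3.96 ± 0.874 CPM in MP libraries. It reached 1420 ± 90.7 CPM in LPS and 1685 ± 98.0 CPM in LPS+MP libraries, so its smaller change went with a higher level. For the spindle genes the fall with MP started from a lower level, the summed CPM of the list being 3279 ± 125 in control, 522 ± 77.7 in LPS, 2162 ± 60.8 in MP and 129 ± 7.96 in LPS+MP libraries.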

How the data were processed

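RNA sequencing values of 12 J774A.1 libraries, 3 biological replicates in each of 4 groups, were used, grouped and numbered as labelled. The RNA was polyadenylated and the library kit strand-specific, with 16 PCR cycles, per the labels' protocols. TopHat2 2.1.1, Trimmomatic 0.36, FastQC 11.5, edgeR, DESeq2 and HTSeq are the tools in the submitters' processing notes, which assign them no step. Genome build, annotation and strand setting of the counting were not given in the sources used here. Values of overlapping, antisense and near-identical genes are therefore uncertain. The authors headed the deposited columns RPKM. Here they were taken as CPM, since each column sums to between 998867 and 999273 and a further deposited column headed logCPM, read as log2 CPM averaged over libraries, differs from the log2 mean of the 12 columns by an SD of 0.2. Values were not whole multiples of 1 read in most libraries, so no count model was fitted and the depth is unknown.

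Genes under 1 CPM in all but at most 2 libraries were left out. The 4 group means of log2(CPM + 1) were estimated from the 12 libraries together in limma 3.58.1 (R 4.3.3), with the variance allowed to follow the mean level. Adjustment of p-values (Benjamini-Hochberg) covered every gene tested in a contrast. The design had been written for log2(RPKM + 1) and was applied to these values. The contrasts were LPS minus control, LPS+MP minus MP, and the difference between them. The call thresholds (adjusted p of 0.05, 2-fold) are those of the series' design text. The scripts were tested on simulated data. What separates the cultures of 1 group is not described, so p-values measure the spread between these samples. Same-numbered LPS and control libraries had residual correlations with a median of 0.077 (0.00862 to 0.158), so replicate numbers were not taken to pair them.

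Genes were named by rule: the 15 largest called rises and falls whose groups do not overlap, the 10 largest gains and losses of CPM, up to 6 members of each list (called members by adjusted p, members against the list's direction, or the most abundant), and well-known LPS genes. Further genes were named after their values were seen, to give the counterpart of a called gene. Some genes that the rule names are not reported here. The gene lists and the comparison itself were chosen with earlier results of these data known. Alternatives were another pseudocount, other minimum values, scaling by quantiles or median ratios, the replicate number as a block, a constant variance prior, no fold threshold, a fit to the 6 libraries compared, and leaving out each library.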

Additional observations from a re-analysis of the deposited data

Results flagged for a closer look

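In 66 of the 252 genes named with a change in the text, the change with LPS in cells carrying MP differed from that with LPS alone. This was judged by the interaction test (limma, adjusted p under 0.05 and a difference of over 2-fold), which 552 of the 11745 genes tested passed. The difference was negative for 55 and positive for 11, beside 432 and 120 over all genes tested. LPS minus control enters both the naming of many of these genes and the difference, so their numbers are a description only. The difference is given below as LPS+MP minus MP, less LPS minus control, on the log2(CPM + 1) scale. A negative difference can go with a higher level in LPS+MP than in LPS libraries, as for Lcn2 and Ptgs2.

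Among inflammatory genes that rose with LPS alone, the differences were -2.85 for Thbs1, -2.72 for Cp, -2.47 for Mmp8, -1.81 for C3, -1.82 for Lcn2, -1.74 for Hp, -1.62 for Marco, -2.95 for Cth and -1.95 for Slc7a11. Receptor and signalling genes gave -2.43 for Ptger2, -2.13 for Ccr1, -1.95 for Fpr1, -1.83 for Fpr2, -1.82 for Fcgr1, -1.82 for Ticam2, -1.22 for Tlr1, -1.18 for Tlr2, -1.74 for Adora2b, -1.47 for Fas and -1.11 for Zc3h12c. Ccr1 rose with LPS alone (1.31 ± 0.17) and changed by -0.82 ± 0.17 with MP. Cytokine and interferon genes gave -2.04 for Csf1, -1.30 for Il1rn, -1.27 for Il10, -1.29 for Cxcl3, -1.50 for Cxcl10, -1.25 for Ifit1 and -1.26 for Nlrc5, and T cell ligands and class II genes -1.30 for H2-Ob, -2.02 for Cd86, -1.19 for Cd80 and -1.45 for Cd274. The remaining genes that rose gave -1.33 for Emr1, -1.78 for Bcl2a1a, -1.45 for Ass1, -1.34 for Pfkfb3, -1.29 for Tgm2, -1.19 for Ptgs2, -1.03 for Ptges, -1.49 for Edn1, -1.34 for Vnn3 and -1.38 for Ccnd2. Among the named genes that rose, a positive difference passed the interaction test in Csf3 (1.35) and Maff (1.09), and Csf3 changed by 8.19 ± 0.11 without and 9.54 ± 0.11 with MP.

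Of the named cell cycle genes that fell with LPS alone, these fell further with MP, by differences of -2.03 for E2f8, -1.93 for Rrm2, -1.84 for Top2a, -1.66 for Aurkb, -1.60 for Ccna2, -1.58 for Plk1, -1.56 for Foxm1, -1.45 for Mki67, -1.33 for Fancd2, -1.32 for Ccnb1 and -1.18 for Mcm5. The difference passed no call for Nusap1 (-0.83), Ccnb2 (-0.67), Sapcd2 (-0.04) or Fam83d (0.17). In LPS+MP libraries the means of these genes were 1.53, 1.52, 0.144 and 0.335 CPM in that order. At such levels the log2(CPM + 1) scale understates a fall, so a further fall with MP cannot be judged for them. Alox5 (-1.17), Mrc1 (-1.14) and Lyz2 (-1.24) also had a more negative change with MP, and Lyz2 changed by -0.30 ± 0.09 with LPS alone and -1.54 ± 0.09 with MP. A less negative change with MP, or for Tpi1 a positive one, was found for Cx3cr1 (2.21), Rgs2 (1.58), Apoe (1.36), Plau (1.31), Cd300lg (1.27), Vim (1.19), Rhob (1.47), Tpi1 (1.09) and Ccl24 (1.01).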

How the results depend on the processing

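The depth of the libraries is unknown, so how far it limits low genes could not be given. With no fold threshold the counts were 3119 rising, 4178 falling, 4843 shared with LPS+MP against MP and 2583 with an interaction. Under the other settings each of these counts stayed within 1.5 times of its reported value: 837 to 1166 rose and 837 to 1163 fell under another pseudocount, other minimum values, other scalings, no variance trend or a fit to the 6 libraries. Leaving out each library gave 963 to 1004 rising, 888 to 1047 falling, 1186 to 1248 shared and 527 to 615 with an interaction. With the replicate block the counts were 975, 945, 1230 and 552, and the best residual correlation of a library was with its own number in 3 of 12. The block changed no call among the named genes.

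Of 252 genes named with a change, 208 were called. Those that lost the call when 1 library was left out are Tnfsf14, Cxcl14, Klf4, Cebpb, Fosl2, Bcl2a1b and Sesn1, with values in the text. Quantile scaling also ended the call of Bcl2a1b (0.96). With a minimum of 5 CPM in at least 3 libraries, 244 of the 252 named genes were still tested. Under that minimum no member of the TNF family, CC chemokine or CXC chemokine lists fell, against 1 in each in the main run. Calls were gained by Ly96 (without control replicate 1, LPS replicate 1 or LPS replicate 3, 1.03 to 1.11, with a pseudocount of 0.1, 1.05, and under both scalings) and Irf1 (under both scalings, 1.00 and 1.03), and by Irf1, Smc3 and Jun without the library given in the text. A pseudocount of 0.1 moved the change of 12 called genes by over 1.5 times: besides Hp, Cfb, Il12b, Ccl24 and Tnfsf14 in the text, it gave 1.74 for Bcl2a1b, 9.23 for Cxcl3, 8.66 for Vnn3, 6.14 for Ccl22, 6.43 for Edn1, 7.84 for Csf2 and 5.48 for Il1f9. No called gene among those named changed sign under any alternative run. The sign changed in Csf1r, Spi1, C1qc, Atm, Psmb10, Tyms and Bax, all without a call. Quantile scaling gave -0.00877 for Csf1r, 0.0148 for Tyms and 0.0581 for Atm, and median-ratio scaling 0.0114 for Bax, 0.0317 for Tyms and 0.0764 for Atm. Leaving out each library gave -0.0652 to 0.151 for Spi1, -0.0755 to 0.18 for C1qc, -0.172 to 0.0859 for Atm, -0.0594 to 0.41 for Psmb10, -0.134 to 0.0163 for Tyms and -0.192 to 0.143 for Bax. The cause was not tested.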

Other observations

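Genes of the cytoskeleton and migration moved in both directions. Of 21 tested, 4 rose and 3 fell. Marcksl1, an actin-bundling substrate of protein kinase C, was at 125, 128 and 115 CPM in control and 925, 609.9 and 801 CPM in LPS libraries (2.64 ± 0.12), and the effector gene Cdc42ep2 rose too (2.57 ± 0.10). Lsp1, an actin-binding protein of leukocytes, fell from 699.8, 637 and 661 CPM to 112, 112 and 138 CPM (-2.46 ± 0.08), and Rhob fell (-1.79 ± 0.08). The groups did not overlap in these genes, as in nearly all called genes, while the actin gene Actb itself changed by -0.32 ± 0.10 without a call.

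Of 16 histone genes 5 fell and none rose. The linker histone gene H1f0 fell from 389, 365 and 356 CPM to 115, 90.3 and 150.1 CPM (-1.66 ± 0.14), and the variants H2afx (-2.23 ± 0.13) and H2afz (-1.79 ± 0.11) fell with it. Most replication-dependent histone messengers carry no poly(A) tail, and these libraries were selected for one, so the list's other members may be counted only in part.

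Several genes switched on by LPS belong to none of the lists. Vnn3, a pantetheinase, went from 0, 0.0259 and 0.0194 CPM to 56.7, 43.8 and 40.1 CPM (5.54 ± 0.15), Edn1 from 0, 0.0275 and 0.273 CPM to 13.7, 16.9 and 12.99 CPM (3.82 ± 0.18) and Met from 0.607, 0.857 and 0.49 CPM to 37.99, 38.4 and 35.9 CPM (4.55 ± 0.12). These genes were chosen after their values were seen.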
